A study of Homo sapiens with 6 samples.

Results

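Beta-catenin (CTNNB1) and the 9 genes taken here as its destruction complex, APC, AXIN1, AMER1, GSK3A, GSK3B, CSNK1A1, BTRC, TNKS and TNKS2, were followed in BT549 cells treated with AS1842856. The 10 genes were chosen by name out of 58735 genes in the count table, and all 10 were among the 14338 genes with enough reads to test. BT549 is an established breast cancer cell line of the basal-like type, and AS1842856 is used as an inhibitor of the forkhead transcription factor FOXO1. RNA-Seq was measured in 3 libraries from cells given the solvent DMSO and in 3 libraries from cells given AS1842856, all after 48 h, with the replicates of each group named A, B and C. The dose is 200 nM in the sample labels and 1 μM in the study's methods, and the labels do not resolve this. The labels name no genetic change in either group, and a single cell line was used. The methods call the replicates biological, without saying how the cultures were separated, so p-values measure the spread between these libraries.

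Beta-catenin links cadherins to the actin cytoskeleton at the cell surface and, in the nucleus, works with TCF/LEF factors to switch on WNT target genes. In a cell without a WNT signal, a complex built on the scaffolds AXIN and APC holds beta-catenin while casein kinase 1 and then glycogen synthase kinase 3 phosphorylate its amino end, the F-box protein beta-TrCP (BTRC) recognises that phosphorylated stretch, and the protein is ubiquitinated and degraded. Tankyrases mark AXIN for degradation. These steps act on proteins, and the values below are RNA levels, so protein amount and phosphorylation were not measured in these libraries. In BT549 cells treated with AS1842856 for 48 h, the study's blots showed more total and active beta-catenin and less GSK3β protein. The RNA of CTNNB1 and GSK3B below moved in the opposite directions, and the relation of RNA to protein was not tested. In RNA from a whole culture, fewer cells with a transcript and less transcript per cell cannot be told apart.

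The stretch of CTNNB1 that the kinases and BTRC act on is shown because 5 of the 10 genes meet there, together with the same stretch of its paralogue JUP (plakoglobin). Both were read 5′ to 3′ on the coding strand from GENCODE release 29 transcripts on GRCh38, and the capitals mark the 4 codons that hold the phosphorylated serines and threonine of beta-catenin and the codons at the same places in JUP.
CTNNB1: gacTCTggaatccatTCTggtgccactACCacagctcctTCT
JUP: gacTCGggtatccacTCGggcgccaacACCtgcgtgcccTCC
The CTNNB1 stretch lies in exon 3 of its transcript at chr3:41224606-41224647, on the plus strand, and the capitals are codons 33, 37, 41 and 45. The last of these is the codon phosphorylated first, by casein kinase 1 alpha (CSNK1A1), the other 3 are those of glycogen synthase kinase 3 (GSK3A and GSK3B), and the first 2 in the line lie in the motif that BTRC and its paralogue FBXW11 bind. The JUP stretch lies in exon 2 at chr17:41771747-41771788, on the minus strand, with the marked codons at 24, 28, 32 and 36. All 4 marked codons of JUP code for serine or threonine as well, 28 of the 42 bases were the same and 11 of the 14 codons gave the same amino acid.

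The 6 libraries held between 15289500 and 22981832 counts, and members had between 294 and 7316 counts in a library. The members' levels lay between the 47.8th and the 96.4th percentile of the genes tested. Levels are given as CPM, counts scaled by the library total and a TMM factor, which compares libraries for 1 gene, and as the deposited FPKM, which also divides by gene length, where genes are compared with each other. Markers of the line VIM, CD44, EGFR, CDH2 and MSN were high and ESR1 and PGR had at most 4 counts in a library, whereas GATA3, listed as a marker that should be low, stood at 48.1 to 65.2 CPM. With KRT8 and KRT18, these 10 line markers summed to 3432 to 3509 CPM with DMSO and 2727 to 2793 CPM with AS1842856. Of 9 markers of other cell types, 5 were at 0 in every DMSO library and 4 in every AS1842856 library. Their summed level was 0.806 to 1.69 CPM with DMSO and 2.94 to 4.37 CPM with AS1842856, nearly all of it PTPRC, with 0.699 to 1.56 and 2.64 to 3.58 CPM, and their part in the results below was not tested.

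Of the 10 members, 9 passed edgeR's quasi-likelihood test at an adjusted p under 0.05 (Benjamini-Hochberg over all genes tested), 6 higher and 3 lower with AS1842856. Called genes were common in these libraries: 56.0% of all genes tested passed, 27.6% higher and 28.4% lower. Groups of libraries did not overlap for 6 of the 10 members, against 59.9% of all genes tested. The median size of the members' log2 fold change was 0.23, beside 0.26 over all genes tested, and the signed medians were 0.14 and 0.00. The 5 members CTNNB1, GSK3A, GSK3B, CSNK1A1 and TNKS passed in every alternative fit and with every library left out in turn. In DESeq2 the same 5 were the members called. There 35.8% of 18975 genes with an adjusted p passed, a set with more low-count genes than the 14338 tested in edgeR. In limma on log2(FPKM + 1), 6 members passed, beside 50.2% of the 13278 genes tested there. The other 4 calls were less stable, all of them lost in DESeq2 and without some single libraries, which are named with each gene. Of 9 alternative fits on all libraries, BTRC passed in 7, AMER1 in 5, APC in 4 and AXIN1 in 1. AMER1, APC and AXIN1 passed in none of the limma fits on FPKM, and AXIN1 was also lost with library totals alone, without a filter, at a mean of at least 50 counts and with the replicate block (adjusted p = 0.057, 0.14, 0.054 and 0.0502 in edgeR). TNKS2 did not pass in any fit.

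**Figure D1:**
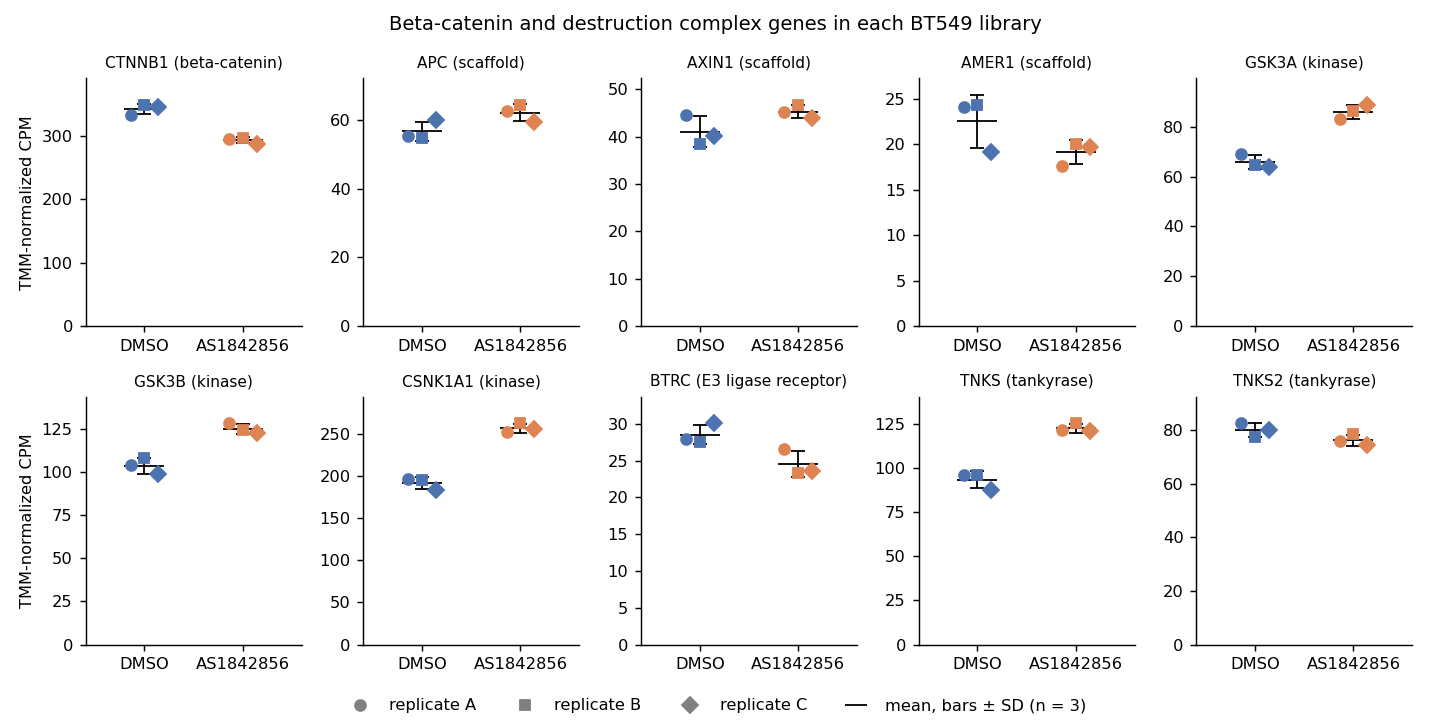
Level of each member (TMM-normalized CPM, linear axis from 0) in the 3 DMSO and the 3 AS1842856 libraries, with the group mean and SD (n = 3) in black. The groups are apart in 6 panels, with CTNNB1 and BTRC lower and GSK3A, GSK3B, CSNK1A1 and TNKS higher after AS1842856, and they overlap for APC, AXIN1, AMER1 and TNKS2.

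CTNNB1 (ENSG00000168036, chr3:41194741-41260096) was lower with AS1842856. Its level was 333, 348 and 344 CPM in the DMSO libraries and 294, 296 and 287 CPM in the AS1842856 libraries (replicates A, B and C). Every treated library lay below every DMSO library. The log2 fold change was -0.22 (SE 0.0357, adjusted p = 6.5e-09 in edgeR), a fall of 14.4%. Over all alternative fits and left-out libraries it stayed between -0.25 and -0.21. JUP (plakoglobin), which can take the place of beta-catenin at junctions, stood at 13.8, 12.5 and 13.0 CPM with DMSO and 11.1, 10.5 and 11.1 CPM with AS1842856. Its groups did not overlap either, and its log2 fold change was -0.27 (adjusted p = 0.027 in edgeR). That call was lost without DMSO replicate A or AS1842856 replicate B, in DESeq2 and in limma on log2(FPKM + 1) without a filter. The log2 fold change of JUP lay between -0.30 and -0.19 over the alternatives. ULK4 overlaps CTNNB1 on the opposite strand but shares no exonic bases with it and had 1.10% as many counts.

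The scaffolds hold the complex together, and the 3 scaffold members had small fold changes. APC (ENSG00000134982, chr5:112707498-112846239), which carries repeats that bind beta-catenin, stood at 55.4, 54.8 and 60.03 CPM with DMSO and 62.8, 64.5 and 59.4 CPM with AS1842856. The groups overlapped, since DMSO replicate C lay above AS1842856 replicate C. The log2 fold change was 0.13 (SE 0.0543, adjusted p = 0.027 in edgeR), and the call was lost without DMSO replicate A (adjusted p = 0.11), DMSO replicate B (0.13), AS1842856 replicate A (0.066) or AS1842856 replicate B (0.15). AXIN1 (ENSG00000103126, chr16:287440-352673), the scaffold that brings the kinases to beta-catenin, stood at 44.7, 38.4 and 40.1 CPM with DMSO and 45.2, 46.7 and 44.0 CPM with AS1842856. Here too the groups overlapped, with DMSO replicate A between the treated libraries. The log2 fold change was 0.14 (SE 0.0618, adjusted p = 0.048 in edgeR), and the call was lost without DMSO replicate B (adjusted p = 0.27), DMSO replicate C (0.17), AS1842856 replicate A (0.082) or AS1842856 replicate B (0.18). AMER1 (ENSG00000184675, chrX:64185117-64205744), which brings APC to the plasma membrane, stood at 24.1, 24.3 and 19.2 CPM with DMSO and 17.6, 20.1 and 19.7 CPM with AS1842856. The third DMSO library lay among the treated ones. The log2 fold change was -0.23 (SE 0.0877, adjusted p = 0.018 in edgeR), and the call was lost without DMSO replicate A (adjusted p = 0.13), DMSO replicate B (0.10) or AS1842856 replicate A (0.10).

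The scaffold with the large change was AXIN2, which is a paralogue of AXIN1, does the same work and is itself a target gene of beta-catenin and TCF. It stood at 3.37, 2.41 and 4.30 CPM with DMSO and 83.1, 85.0 and 87.0 CPM with AS1842856, with a log2 fold change of 4.64 (SE 0.0882, adjusted p = 5.8e-130 in edgeR). AXIN2 was chosen with this rise known, and it is given to set AXIN1 beside it. In FPKM, which allows for gene length, AXIN2 made up 9.74%, 8.23% and 13.3% of the summed AXIN1 and AXIN2 level in the DMSO libraries and 72.5%, 72.3% and 73.9% in the AS1842856 libraries. The share was thus the smaller part in every DMSO library and the larger part in every treated one. The means were 10.4% ± 2.60 and 72.9% ± 0.890 (SD, n = 3 each), a difference of 62.5 percentage points (exact two-sided permutation p = 0.1, the smallest that 3 against 3 libraries allow). Since AXIN2 was chosen with its rise known, this p is not independent evidence of a change. The sum of the AXIN transcripts went from 6.10 to 22.2 FPKM, a difference of 1.87 on the log2 scale.

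**Figure D2:**
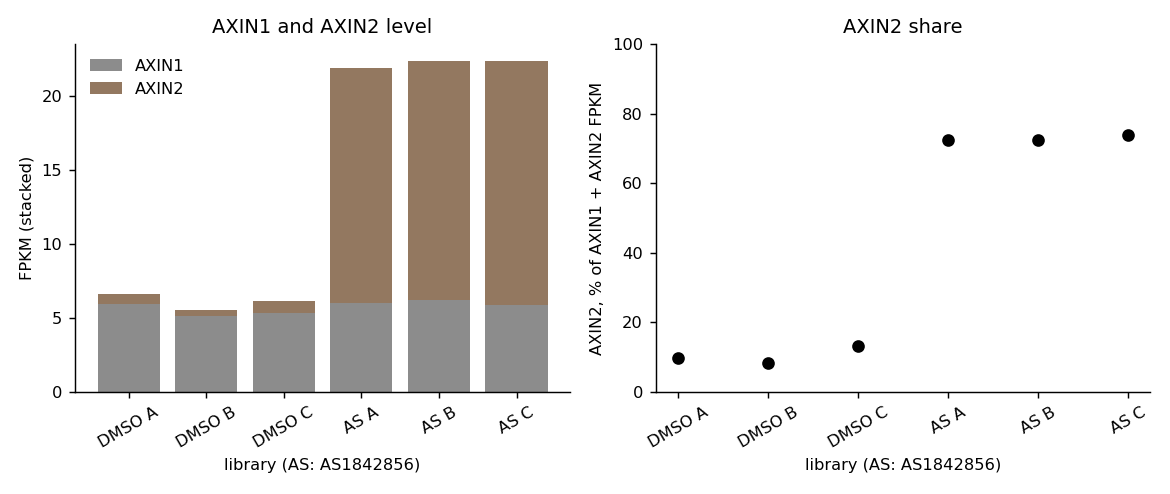
Left, AXIN1 and AXIN2 level in each library (FPKM, stacked bars from 0), and right, AXIN2 as a percentage of both. The AXIN1 part is 5.10 to 6.21 FPKM in all 6 libraries, while the AXIN2 share lies between 8.23% and 13.3% with DMSO and between 72.3% and 73.9% with AS1842856.

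APC2, the paralogue of APC, was at a low 2.91, 2.99 and 2.31 CPM with DMSO and 4.07, 4.11 and 3.98 CPM with AS1842856. Its groups did not overlap, with a log2 fold change of 0.57 (SE 0.203, adjusted p = 0.012 in edgeR). Its exons share 55 bases with C19orf25 on the opposite strand, which had 1112% as many counts and a log2 fold change of 0.25. They share 391 bases with the antisense transcript AC027307.2, which had 51.8% as many counts and a log2 fold change of 0.58 (adjusted p = 0.079 in edgeR). It is not known whether reads were counted by strand, so the value of APC2 is uncertain. The APC2 call was lost without DMSO replicate C, in DESeq2 and in limma on log2(FPKM + 1) without a filter. APC2 was not tested in the limma fits with a filter. AMER2 and AMER3, the paralogues of AMER1, had 0 counts in all 6 libraries.

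All 3 kinases were higher after treatment, and their groups of libraries did not overlap. CSNK1A1 (ENSG00000113712, chr5:149492197-149551552), casein kinase 1 alpha, which phosphorylates the priming site of beta-catenin, showed the largest member change. It stood at 196, 195 and 184 CPM with DMSO and 252, 263 and 257 CPM with AS1842856. The treated libraries all lay above the DMSO libraries. The log2 fold change was 0.42 (SE 0.0376, adjusted p = 6.1e-23 in edgeR), a rise of 34.0%. CSNK1A1 shares 2886 of its exonic bases, 37.4%, with the same-strand transcript AC021078.1, which had 12.4% as many counts and a log2 fold change of 0.53, so part of either value can belong to the other. The single-exon copy CSNK1A1L had 0 counts in every library.

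GSK3A (ENSG00000105723, chr19:42230186-42242625) and GSK3B (ENSG00000082701, chr3:119821323-120094417) encode the alpha and beta forms of glycogen synthase kinase 3, which phosphorylate beta-catenin after the priming step. GSK3A stood at 69.0, 64.8 and 63.8 CPM with DMSO and 83.2, 86.3 and 88.8 CPM with AS1842856. Its log2 fold change was 0.38 (SE 0.0497, adjusted p = 1.7e-12 in edgeR), a rise of 30.5%. GSK3B stood at 104, 108 and 98.6 CPM with DMSO and 128, 124 and 123 CPM with AS1842856. Its log2 fold change was 0.27 (SE 0.0433, adjusted p = 7.4e-09 in edgeR), a rise of 20.7%. For both genes the treated libraries were the higher ones without exception. Their summed level went from 28.5 ± 1.01 to 36.0 ± 0.300 FPKM (SD, n = 3), a difference of 0.34 on the log2 scale with no overlap. The ratio of GSK3A to GSK3B in FPKM was 1.31, 1.19 and 1.28 with DMSO and 1.28, 1.38 and 1.43 with AS1842856, which overlapped. GSK3A shares 479 exonic bases with AC006486.1, which had 0 counts.

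BTRC (ENSG00000166167, chr10:101354033-101557321), the F-box protein that carries phosphorylated beta-catenin to the SCF ubiquitin ligase, was lower. It stood at 27.97, 27.6 and 30.04 CPM with DMSO and 26.6, 23.4 and 23.6 CPM with AS1842856. The groups did not overlap, but AS1842856 replicate A came close to the lowest DMSO library. The log2 fold change was -0.22 (SE 0.0777, adjusted p = 0.0088 in edgeR), and the call was lost without DMSO replicate C (adjusted p = 0.059) or AS1842856 replicate B (0.066). Its paralogue FBXW11, which recognises the same motif, moved the other way, from 103, 108 and 108 CPM with DMSO to 122, 124 and 126 CPM with AS1842856. FBXW11 had a log2 fold change of 0.22 (SE 0.0430, adjusted p = 1.9e-06 in edgeR) and passed in every alternative fit. In FPKM the ratio of BTRC to FBXW11 was 0.229, 0.214 and 0.234 with DMSO and 0.183, 0.159 and 0.158 with AS1842856, a difference of -0.44 on the log2 scale with no overlap. FBXW11 was the more abundant of the pair per length in every library, and the summed level of both went from 23.3 ± 0.666 to 25.8 ± 0.136 FPKM (SD, n = 3), a difference of 0.15 on the log2 scale.

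The tankyrases are paralogues with the same role, and TNKS passed the test where TNKS2 did not. TNKS (ENSG00000173273, on chromosome 8) stood at 96.3, 96.1 and 87.9 CPM with DMSO and 122, 126 and 121 CPM with AS1842856. All treated libraries lay above all DMSO libraries. The log2 fold change was 0.39 (SE 0.0441, adjusted p = 7.3e-16 in edgeR), a rise of 31.4%. TNKS2 (ENSG00000107854, chr10:91798312-91865276) stood at 82.5, 77.6 and 80.1 CPM with DMSO and 75.8, 78.5 and 74.4 CPM with AS1842856. Its groups overlapped, and its log2 fold change was -0.07 (SE 0.0489, adjusted p = 0.21 in edgeR). The ratio of TNKS to TNKS2 in FPKM was 0.507, 0.538 and 0.476 with DMSO and 0.697, 0.694 and 0.706 with AS1842856, a difference of 0.47 on the log2 scale with no overlap. TNKS2 remained the more abundant per length in every library, whereas in CPM TNKS was the higher in every library. The summed tankyrase level went from 19.5 ± 0.541 to 20.9 ± 0.511 FPKM (SD, n = 3), a difference of 0.10 on the log2 scale.

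**Figure D3:**
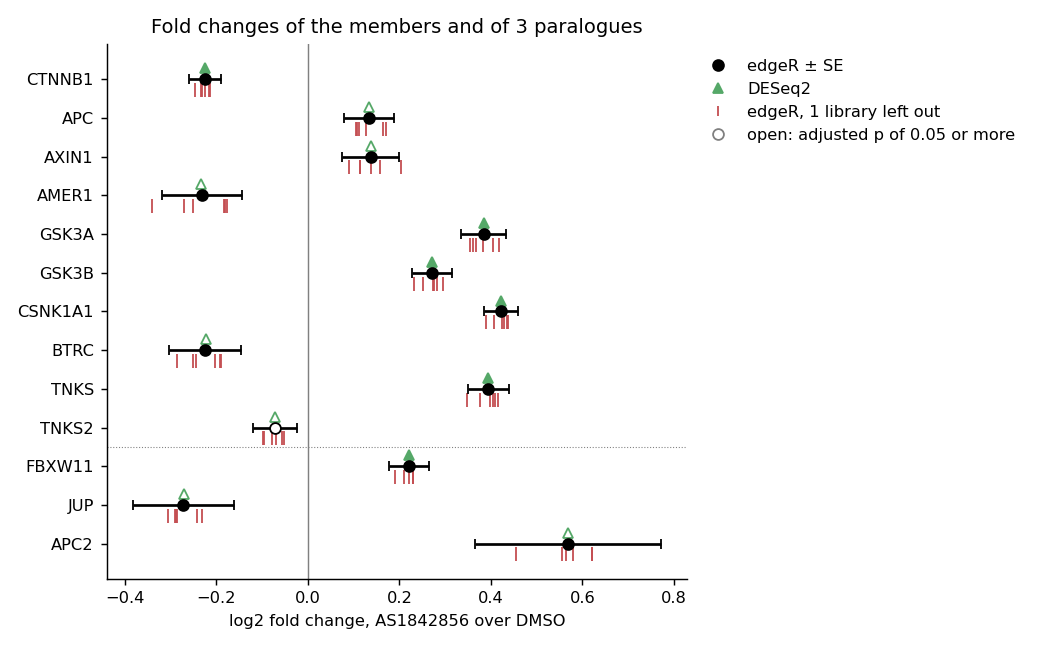
Log2 fold change (AS1842856 over DMSO) of the 10 members and, under the dotted line, of FBXW11, JUP and APC2, with edgeR's estimate and SE as black points and bars, DESeq2's estimate as triangles and the edgeR estimates with 1 library left out as red ticks. Open symbols have an adjusted p of 0.05 or more. CTNNB1, GSK3A, GSK3B, CSNK1A1, TNKS and FBXW11 are filled in both tools, and BTRC and FBXW11 lie on opposite sides of 0.

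Per length, the order of the members changed at the top. With DMSO, CTNNB1 led at 28.5 ± 0.632 FPKM (SD, n = 3 for all values here), followed by CSNK1A1 at 24.8 ± 0.856 and GSK3A at 15.9 ± 0.685. TNKS2 at 12.9 ± 0.418 and GSK3B at 12.6 ± 0.556 came next and overlapped. Then came TNKS at 6.56 ± 0.334, AXIN1 at 5.46 ± 0.436, APC at 4.54 ± 0.232 and BTRC at 4.29 ± 0.202, of which APC and BTRC overlapped, and AMER1 at 2.65 ± 0.340 was the lowest. With AS1842856, CSNK1A1 led at 33.2 ± 0.679 FPKM and CTNNB1 came second at 24.4 ± 0.420. GSK3A followed at 20.8 ± 0.652, GSK3B at 15.2 ± 0.363, TNKS2 at 12.3 ± 0.342, TNKS at 8.61 ± 0.172, AXIN1 at 6.02 ± 0.183, APC at 4.98 ± 0.210, BTRC at 3.69 ± 0.272 and AMER1 at 2.25 ± 0.153. No neighbours in that order overlapped. CTNNB1 and CSNK1A1 thus changed places per length, and GSK3B moved above TNKS2. In CPM neither order changed. There CTNNB1 led CSNK1A1 with means of 342 and 192 with DMSO and 292 and 257 with AS1842856. GSK3B already lay above TNKS2 with DMSO, at means of 104 and 80.1 CPM. The FPKM lengths were within 0.51% of the joined exons of all annotated transcripts, and the order depends on them.

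Set against its partners within each library, CTNNB1 was lower with AS1842856. The ratio of CTNNB1 to the summed scaffolds APC, AXIN1, AXIN2 and AMER1 in FPKM was 2.005, 2.27 and 2.17 with DMSO and 0.849, 0.825 and 0.812 with AS1842856, a difference of -1.37 on the log2 scale. Without AXIN2 the ratio was 2.10, 2.35 and 2.32 with DMSO and 1.87, 1.80 and 1.85 with AS1842856, a difference of -0.29. The ratio to the summed kinases CSNK1A1, GSK3A and GSK3B was 0.507, 0.538 and 0.561 with DMSO and 0.360, 0.353 and 0.345 with AS1842856, a difference of -0.60. None of these ratios overlapped between the groups. Over the 5 sums and ratios planned, every exact two-sided permutation p was 0.1 (adjusted 0.1), the smallest that the design allows. Those that include AXIN2 were formed with its rise known, so their p-values are not independent evidence. The other 5 ratios were TNKS to TNKS2, BTRC to FBXW11, GSK3A to GSK3B, and CTNNB1 to the scaffolds without AXIN2 and to the kinases. They were formed after the fits of their genes were seen and are given as descriptions. The exact permutation test was also run on them, but its p-values are not used here.

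RefSeq promoters on GRCh38.p14 were read for 8 of the 10 members, 10 promoters in all. Each ran from 250 bases before to 50 bases after a transcription start. The members TNKS and BTRC and the paralogue AXIN2 were not among the genes searched, so their promoters are not described. They were searched on both strands for the TCF/LEF letters CTTTGAT and CTTTGAA and for the forkhead letters GTAAACA. None of these letters occurred in the 10 promoters, nor in those of JUP, APC2, AMER2, AMER3, CSNK1A1L and FBXW11. Among all 35116 promoters, 6.86% held one of the TCF/LEF words and 3.42% the forkhead word. The members' promoters ranged from 40.0% to 78.0% GC and from 10 to 44 CpG dinucleotides, beside medians of 58.7% and 14 over all promoters. The CTNNB1 promoter had 74.0% GC and 39 CpG, and the 2 CSNK1A1 promoters differed, with 69.7% GC and 35 CpG in one and 40.0% and 10 in the other.

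The genes around the complex were read from lists by function. The counts of each list stand beside 56.0% of all genes tested that passed, 27.6% higher and 28.4% lower. Of 5 other casein kinase 1 genes, 2 were higher, 1 was lower and 2 did not pass (median log2 fold change 0.06, beside 0.00 over all genes tested). CSNK1E, the epsilon kinase, which acts on dishevelled, went from 111 to 116 CPM with DMSO to 146 to 148 CPM with AS1842856 and had a log2 fold change of 0.37 (SE 0.0414, adjusted p = 4.6e-16 in edgeR), near that of CSNK1A1. CSNK1G2 had a log2 fold change of -0.11 (SE 0.0420, adjusted p = 0.015 in edgeR). Of 10 subunits of protein phosphatase 2A, which takes phosphate off beta-catenin and binds AXIN and APC, 3 were higher, 2 lower and 5 did not pass (median 0.03). The regulatory subunit PPP2R5A led the rises, from between 32.7 and 34.1 CPM to between 48.2 and 51.5 CPM, with a log2 fold change of 0.57 (SE 0.0629, adjusted p = 2.1e-16 in edgeR). PPP2R5D had the largest fall, with a log2 fold change of -0.15 (SE 0.0475, adjusted p = 0.0055 in edgeR).

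Downstream of BTRC, 13 genes of the SCF ligase and of beta-catenin turnover gave 1 higher, 5 lower and 7 that did not pass (median -0.02). Over all genes tested, 27.6% passed as higher and 28.4% as lower. The ubiquitin ligase SIAH2 was higher by 0.20 (SE 0.0654, adjusted p = 0.0066 in edgeR) on the log2 scale, and the deubiquitinase USP25, which stabilises tankyrases, had the largest fall, with a log2 fold change of -0.31 (SE 0.0741, adjusted p = 0.00013 in edgeR). USP25 stood at 30.3 to 34.0 CPM with DMSO and at 25.5 to 26.6 CPM with AS1842856. The list called here dishevelled and GSK3-binding held 10 genes. Besides these 2 kinds it held the AXIN regulators DIXDC1 and CCDC88C and the lipid kinases PIP5K1B and PI4K2A. Of the 10, 9 could be tested, of which 5 were higher, 3 lower and 1 did not pass (median 0.18). FRAT1, which binds GSK3, had a log2 fold change of -1.50 at a mean level under 1 CPM, and its groups overlapped. At 1 CPM or more, the largest rise and fall were both in proteins that bind GSK3. GSKIP went from 16.1 to 18.1 CPM with DMSO to 19.5 to 23.9 CPM with AS1842856, a log2 fold change of 0.32 (SE 0.0898, adjusted p = 0.0012 in edgeR). FRAT2 went from 10.4 to 12.4 CPM down to 6.39 to 7.13 CPM, a log2 fold change of -0.73 (SE 0.127, adjusted p = 1.2e-07 in edgeR). The dishevelled genes DVL1, DVL2 and DVL3, named after their values were seen, had log2 fold changes of 0.23, 0.28 and 0.18, and all 3 passed. The remaining called genes of the list were PI4K2A, with a log2 fold change of -0.61, and DIXDC1, with 0.21.

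**Figure D4:**
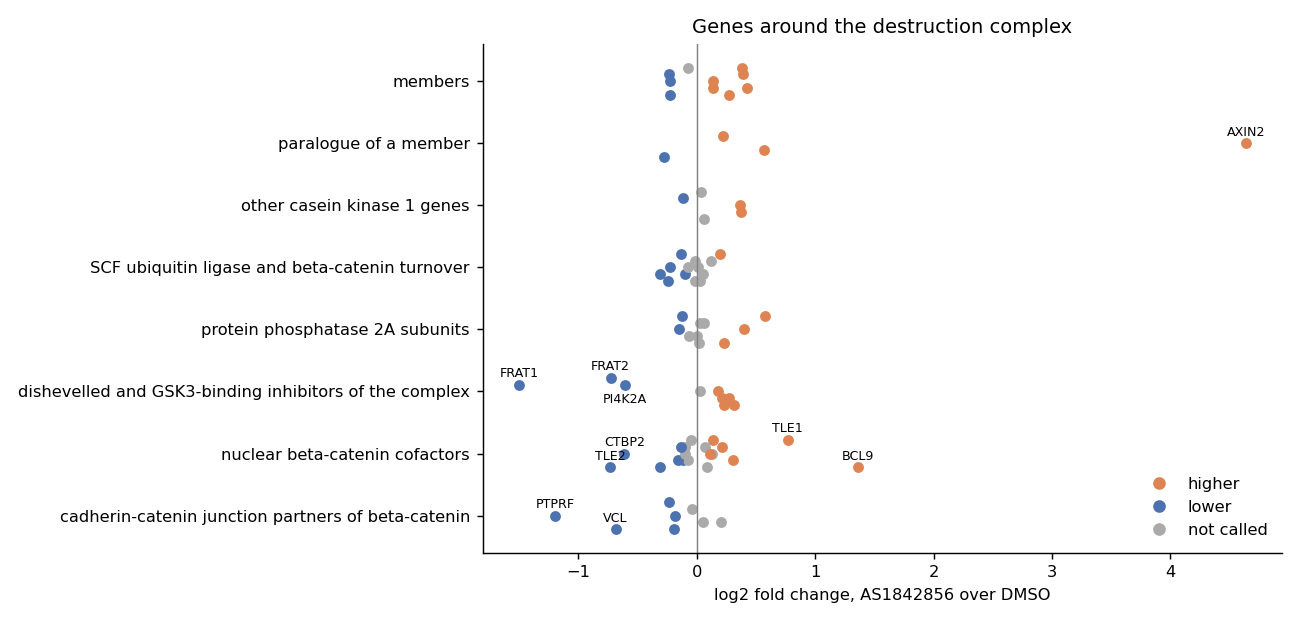
Log2 fold changes (AS1842856 over DMSO) of the tested genes of each list but the feedback targets, orange for higher, blue for lower and grey for not called in edgeR, with genes of 0.6 or more in size named. The members lie between -0.23 and 0.42, and AXIN2 is at 4.64.

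Beta-catenin works outside the complex at cell junctions and in the nucleus. Among its partners at cadherin junctions, 8 of 13 genes could be tested, and 0 were higher, 5 lower and 3 did not pass (median -0.19). Over all genes tested, 27.6% were higher and 28.4% lower. The count of 0 was not stable, since 1 gene was higher in DESeq2, with DESeq2's size factors in edgeR, without a filter, and without DMSO replicate A or AS1842856 replicate A. CDH3, named after its values were seen, had a log2 fold change of 0.21 with an adjusted p of 0.052 in edgeR. PTPRF, a receptor phosphatase that binds beta-catenin, stood at 444 to 483 CPM with DMSO and at 200 to 207 CPM with AS1842856, a log2 fold change of -1.20 (SE 0.0363, adjusted p = 1.9e-90 in edgeR). The other 4 that fell, named after their values were seen, were VCL (-0.69), CTNND1 (-0.23), CDH2 (-0.19) and CDH11 (-0.18) on the log2 scale, the last 3 changing by about as much as CTNNB1. CDH1, the epithelial cadherin, had 1 count in all 6 libraries together. Among 19 nuclear cofactors of beta-catenin, 6 were higher, 6 lower and 7 did not pass (median -0.04). BCL9, which ties beta-catenin to the transcription machinery, went from 38.8 to 43.0 CPM with DMSO to 98.8 to 108 CPM with AS1842856, a log2 fold change of 1.36 (SE 0.0526, adjusted p = 1.2e-70 in edgeR). The largest fall was in the corepressor TLE2, with a log2 fold change of -0.73 (SE 0.212, adjusted p = 0.0016 in edgeR).

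Feedback genes switched on by beta-catenin and TCF were listed with their response known, and their counts are not independent evidence of a direction. Of 12 listed, 9 could be tested, with 8 higher and 1 lower (median 3.56), beside 27.6% and 28.4% of all genes tested. Besides AXIN2, the rises were in NKD1 (5.87), TCF7 (4.74), LEF1 (4.08), TNFRSF19 (3.56), NOTUM (3.37), SP5 (3.13) and ZNRF3 (1.83) on the log2 scale, and DKK1 had a log2 fold change of -1.13. The 10 members, with log2 fold changes between -0.23 and 0.42, had smaller changes than each of these target genes in the same libraries. Since the target genes were listed with their response known, that difference in size is a description and not a test.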

How the data were processed

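RNA-Seq libraries from BT549 cells (3 DMSO, 3 AS1842856) were grouped by their labels. The authors deposited raw counts per gene, without normalization, and FPKM values per library. The study's methods name STAR for mapping and the submitters' processing notes name Bowtie 0.12.2, CASAVA and GRCh38; the counting tool and its use of strand are not given in the sources used here. All 58735 gene identifiers matched GENCODE release 29 (Ensembl 94). Genes were filtered by filterByExpr (minimum count 10, minimum total 15), scaled by TMM and tested over all genes by edgeR 4.0.16 (quasi-likelihood, R 4.3.3, Benjamini-Hochberg, threshold 0.05, common biological coefficient of variation 0.0374), with DESeq2 1.42.0 and limma 3.58.1 on log2(FPKM + 1) as alternatives. Ratios of FPKM were compared by exact permutation tests (scipy 1.17.1). Replicates of a group differed by more than sampling noise. Members and lists were chosen with earlier results of these data known. Named were all members and paralogues and, from other lists, called genes of at least 1 CPM with a log2 change of at least 1, or else the largest called rise and fall. The edgeR step was first tested on simulated counts with 200 changed genes. It recovered 68.25%, 92.06% and 97.14% of log2 changes of 0.5, 1 and 2 in size, and 4.52% of its calls were false. Changes under 0.5, the size of every member's change, were not simulated. Far fewer genes changed in the simulation than were called in the data, so it does not measure the error of these calls.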

Additional observations from a re-analysis of the deposited data

How the results depend on the processing

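The number of members called was 5, in place of 9, in DESeq2 and in limma on log2(FPKM + 1) without a filter, and 5 to 9 over all alternatives. The cause was not tested. The lists of paralogues fell to 2 calls in both of these fits, in place of 4, and the dishevelled and GSK3-binding list to 5, in place of 8, in limma without a filter. Leaving out 1 library gave 6 to 9 called members and 7427 to 7678 called genes in all, and an AXIN2 share difference of 61.4 to 63.9 percentage points. All member log2 fold changes kept their direction. In CPM, which does not divide by length, the AXIN2 share differed by 57.7 points, and the ratio of CTNNB1 to the scaffolds by -1.001 on the log2 scale. The deviations of same-letter libraries from their group means had correlations of 0.042, -0.012 and -0.003, beside -0.028 to 0.030 for other pairs. These values gave no clear sign of pairing by letter, and they cannot show how the cultures were handled. With the replicate letter as a block, 7862 genes and 8 members were called, AXIN1 being the one lost. Members with fewer counts, AMER1 and BTRC among them, had the larger standard errors.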
